A study of Mus musculus with 5 samples.

Results

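Ms4a6c, Ms4a6d, Ms4a6b, Ms4a4c, Ms4a4a and Ms4a7 are 6 genes of the Ms4a family that are expressed in monocytes or macrophages, and they were taken by symbol from the 31053 features of the count matrices. Those features hold 19 Ms4a genes, so 13 others of the family were measured beside them. The study asked how myeloid cells of the BM rebuild after cyclophosphamide (CTX), an alkylating chemotherapy agent. BALB/c mice received 150 mg/kg CTX intraperitoneally or were left untreated (naive), and BM was taken at day 2 (D2 CTX) or day 7 (D7 CTX) and labelled CD45+. The other 2 libraries held sorted CD11b+Ly6Chi monocytes of the BM, from naive and from CTX-treated mice, a gate that selects classical monocytes by surface proteins. For the sorted CTX library the labels give no day, and the study's methods give day 7. Each of the 5 conditions was 1 library, and each BM library pooled 3 mice, so no test between conditions was possible and the spread between mice is unknown.

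MS4A proteins are small proteins that cross the cell membrane several times, and many sit beside immune receptors and change their signalling. Among the best known, Ms4a1 encodes CD20 of B cells, Ms4a2 encodes the beta chain of the high-affinity IgE receptor of mast cells and basophils, and Ms4a3 marks granulocyte and monocyte progenitors. The Ms4a4 and Ms4a6 genes of the mouse arose by local duplication, and MS4A4A and MS4A7 are known as macrophage proteins in humans. Classical monocytes are Ly6Chi cells that leave the BM through Ccr2 and become macrophages in tissue, and non-classical monocytes are Ly6C-low cells of the vessels.

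The 6 genes lie on chromosome 19 within the stretch from Ms4a7 to Ms4a3, chr19:11321039-11640851 in GRCm38, of 320 kb. In that order and by their Ensembl identifiers they are Ms4a7 (ENSMUSG00000024672, chr19:11321039-11336146, minus strand), Ms4a4a (ENSMUSG00000101389, chr19:11375523-11392790, plus strand), Ms4a4c (ENSMUSG00000024675, chr19:11404770-11427246, plus strand), Ms4a6c (ENSMUSG00000079419, chr19:11469366-11482192, plus strand), Ms4a6b (ENSMUSG00000024677, chr19:11516512-11531256, plus strand) and Ms4a6d (ENSMUSG00000024679, chr19:11586604-11604849, minus strand). Ms4a4b, a family gene of lymphocytes, lies between Ms4a4c and Ms4a6c. The copies are close enough to be shown beside each other. The 250 bases before the RefSeq start (GRCm38.p6) of Ms4a6c and of Ms4a6b share a run of 48 bases, and those of Ms4a4c and Ms4a4b share a run of 20 bases, printed in capitals, 5′ to 3′ on the plus strand.
Ms4a6c, chr19:11469118-11469367: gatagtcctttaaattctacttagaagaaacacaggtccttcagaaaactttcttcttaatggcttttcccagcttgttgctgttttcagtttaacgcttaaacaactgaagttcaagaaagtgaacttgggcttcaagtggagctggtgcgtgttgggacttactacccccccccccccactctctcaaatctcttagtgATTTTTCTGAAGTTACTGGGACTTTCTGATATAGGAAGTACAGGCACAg
Ms4a6b, chr19:11518309-11518558: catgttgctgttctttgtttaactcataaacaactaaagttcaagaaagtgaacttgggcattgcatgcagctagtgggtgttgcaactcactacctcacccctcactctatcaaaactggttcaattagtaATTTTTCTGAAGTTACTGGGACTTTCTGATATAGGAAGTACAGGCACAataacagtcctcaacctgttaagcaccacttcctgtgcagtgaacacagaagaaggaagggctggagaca
Ms4a4c, chr19:11407411-11407660: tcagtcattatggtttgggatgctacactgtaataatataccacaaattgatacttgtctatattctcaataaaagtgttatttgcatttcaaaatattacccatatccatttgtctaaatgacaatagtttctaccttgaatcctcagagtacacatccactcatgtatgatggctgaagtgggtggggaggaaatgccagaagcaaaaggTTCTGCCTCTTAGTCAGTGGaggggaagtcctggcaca
Ms4a4b, chr19:11443308-11443557: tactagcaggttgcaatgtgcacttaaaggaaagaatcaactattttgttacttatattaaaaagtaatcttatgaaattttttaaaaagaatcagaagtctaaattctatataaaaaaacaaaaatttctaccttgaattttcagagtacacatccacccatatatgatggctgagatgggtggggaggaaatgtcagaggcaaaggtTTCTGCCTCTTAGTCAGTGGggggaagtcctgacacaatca
In the Ms4a6c promoter the run ends 2 bases before the start, and in the Ms4a6b promoter it ends 71 bases before. Over all 250 bases the Ms4a6c and Ms4a6b promoters were 51.1% identical, near the 43.8% to 51.5% of the 33 other pairs of the family, whereas Ms4a4c and Ms4a4b were 70.3% identical. The letters GAGGAAGT (a PU.1 motif) and TTGCNNAA (a C/EBP motif) were searched on both strands. Neither was found in these windows or in the other promoters of the family that RefSeq lists here, 9 windows of 8 genes. In windows of the same 250 bases, 2.44% and 9.56% of 32851 promoters held them. RefSeq's table gave no promoter for Ms4a6d. Transcripts of the copies also share sequence, with runs of 127 bases between Ms4a4c and Ms4a4b, 96 between Ms4a6c and Ms4a6b and 81 between Ms4a6b and Ms4a6d, and reads inside such runs cannot be told apart between the copies.

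The matrices held between 2223 and 8605 barcodes and between 22694817 and 68459527 unique molecular identifiers (UMIs), which count captured RNA molecules. A filter that kept cells of 200 genes or more and under 20% mitochondrial UMIs left 7104 naive, 6126 D2 CTX and 8290 D7 CTX BM cells, and 1891 naive and 2564 CTX sorted cells. The median depth differed between BM libraries, at 3953.5, 3033.5 and 7189.5 UMIs per cell for naive, D2 CTX and D7 CTX. At most 16 barcodes were shared by a pair of libraries, naive and D7 CTX BM, or 0.209% of the smaller one. The largest share was 0.36%, from 8 barcodes of naive BM and naive sorted monocytes. For levels, the UMIs of all cells in a class were added and given as counts per 1000000 UMIs (CPM), which for 3′ tags are not divided by length. Ranges in parentheses are exact 95% intervals that cover counting error only, and changes are log2 ratios of CPM, treated over naive. BM cells were clustered without any Ms4a gene and classes were named by marker genes. The monocyte class took in a pair of clusters, an Apoe-led cluster with Fn1, S100a4 and Ccr2 among its leading genes and an F13a1-led cluster with Lgals1 and Klf4. All 9 monocyte markers were detected in the class, which held 667 naive, 355 D2 CTX and 972 D7 CTX cells. Divided further, it gave 12 sub-clusters, of which by the same markers 1 took the monocyte name, 3 took none and 8 took another. The sub-clusters led by Mpo, Camp and Ly6d/Dntt took the names GMP, immature neutrophil and plasmacytoid dendritic, so the class holds cells that the markers place elsewhere.

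The monocyte class carried nearly all of the Ms4a6c and Ms4a6d UMIs of the BM. The monocyte class took up 9.39%, 5.79% and 11.7% of cells in naive, D2 CTX and D7 CTX BM, and it held 93.9%, 91.3% and 95.8% of the Ms4a6c UMIs and 97.4%, 96.1% and 96.1% of the Ms4a6d UMIs of the same libraries. For Ms4a4c the shares were 88.5%, 83.3% and 96.0%. Ms4a6b had less, with 56.4%, 32.6% and 80.8% of its UMIs in the class. Ms4a7, from only 74, 219 and 44 UMIs, had 82.4%, 58.0% and 61.4% there. The macrophage cluster held 13.5%, 32.9% and 27.3% of the Ms4a7 UMIs. Over all genes, the class held 5646078 of the 46065849 UMIs of naive BM. In D2 CTX it held 6305488 of 33940059, and in D7 CTX 8966176 of 67921924, so its share of UMIs was above its share of cells.

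**Figure D1:**
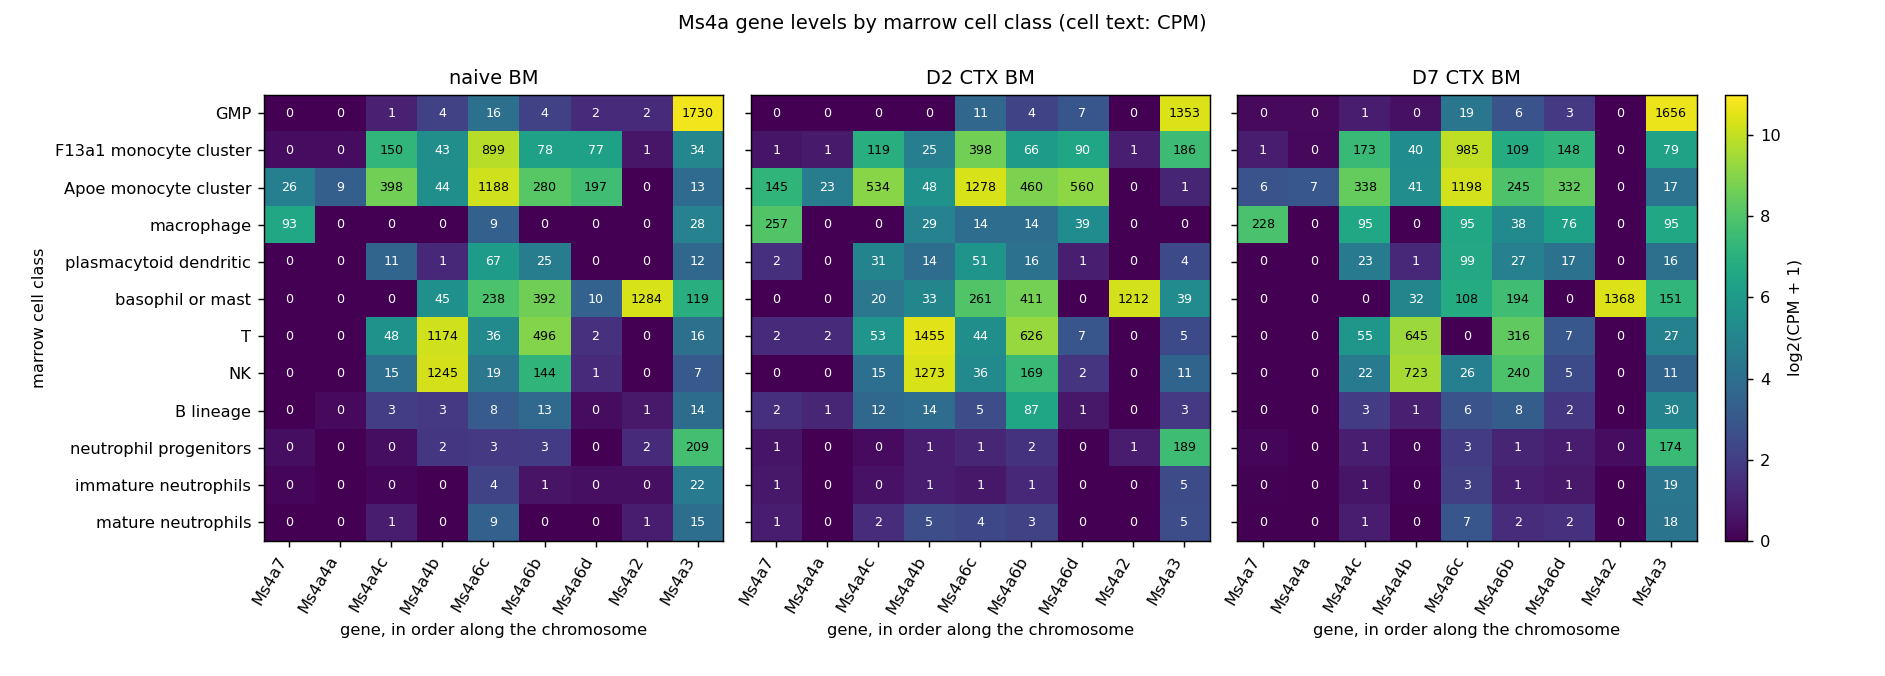
Heat map of CPM for the 6 genes and 3 neighbours (Ms4a4b, Ms4a2, Ms4a3), in order along the chromosome, by BM cell class and library; the colour is log2(CPM + 1) and the number in each cell is CPM. Ms4a6c is at 398 CPM or more in both monocyte clusters of every library and at or under 9.42 CPM in the neutrophil classes, while Ms4a6b is also high in T cells and in basophils or mast cells.

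Ms4a6c, whose protein is little studied, had the highest UMI count of the 6 genes. In the monocyte class its level was 1017 CPM (991 to 1044) without treatment, 517 (500 to 535) on D2 CTX and 1075 CPM on D7 CTX. The D2 CTX value was low and stood apart from the other 2, which lay close together. In granulocyte and monocyte progenitors (GMPs) Ms4a6c was at 15.8, 11.4 and 18.99 CPM, so the F13a1 cluster was 57.0-fold, 35.01-fold and 51.9-fold above GMPs of the same library. B lineage cells, which served as the background of free RNA, had 7.87, 5.11 and 6.07 CPM. Plasmacytoid dendritic cells had 67.0, 51.2 and 98.97 CPM, and the basophil or mast cell cluster had 238 CPM in naive and 261 in D2 CTX BM, above that background.

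Ms4a6d, reported as a partner of the complement receptor Vsig4, was at 126 CPM (117 to 136), 154 (144 to 164) and 226 (216 to 236) in the monocyte class of naive, D2 CTX and D7 CTX BM. The 3 intervals did not overlap, and naive was lowest and D7 CTX highest. Outside the class it was at or under 6.63 CPM in GMPs and at or under 2.34 CPM in B lineage cells. Ms4a4c was at 252 CPM (239 to 265), 175 (165 to 186) and 243 (233 to 254). Its naive and D7 CTX intervals overlapped, and D2 CTX was lower. Apart from the monocyte class, Ms4a4c was seen in an Ighd-led cluster, at 180 CPM in naive and 60.7 CPM in D2 CTX BM. By its markers this cluster took the MHC class II-rich dendritic name (score 52.1), while the B lineage markers scored highest (62.1). It was left without a class and is not part of the B lineage cells given here.

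Ms4a6b was shared with lymphocytes. In the monocyte class it was at 160 CPM (150 to 171), 119 (111 to 128) and 166 (158 to 175) in naive, D2 CTX and D7 CTX BM. T cells were higher in every library, at 496 CPM (436 to 561), 626 (585 to 670) and 316 (231 to 421), the last from 33 cells, and NK cells were at 144, 169 and 240 CPM. The basophil or mast cell cluster had 392 CPM in the naive library and 411 in D2 CTX. In T cells Ms4a6b made up 85.3% of the naive and 85.5% of the D2 CTX UMIs of the 6 genes. In B lineage cells it was at 12.7, 86.6 and 8.41 CPM, a log2 ratio of 2.77 (2.48 to 3.07) at D2 CTX, and Ms4a1 was at 208, 1484 and 16.8 CPM in the same cells. Summed over all kept cells, Ms4a6b was at 34.9, 68.002 and 27.2 CPM. Such a sum cannot tell fewer cells of a type from less RNA per cell, and at D2 CTX T cells held 36.0% and B lineage cells 17.6% of the Ms4a6b UMIs.

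Ms4a7 and Ms4a4a were sparse. Ms4a7 was at 10.8 CPM (8.26 to 13.9), 20.1 (16.8 to 23.96) and 3.01 (1.98 to 4.38) in the monocyte class of naive, D2 CTX and D7 CTX BM. The 3 intervals did not overlap, with D2 CTX highest and D7 CTX lowest. In the macrophage cluster it was at 93.4 CPM (44.8 to 172) in 67 naive cells, 257 (201 to 324) in 138 D2 CTX cells and 228 (118 to 398) in 21 D7 CTX cells. Ms4a4a had no UMI in the macrophage cluster of any library, but that cluster held only 107095, 280177 and 52676 UMIs over all genes. There 3 UMIs would be 28.0, 10.7 and 57.0 CPM, so a level like that of the monocyte class could not be seen. The monocyte class held 22 of 26, 24 of 32 and 27 of 28 Ms4a4a UMIs of the BM libraries. Ms4a4a stayed between 3.01 and 3.90 CPM in that class, where the libraries could not be told apart at this depth.

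The 2 monocyte clusters differed in how much of each gene they carried. In naive BM the Apoe cluster was above the F13a1 cluster by a log2 ratio of 0.40 (0.33 to 0.48) for Ms4a6c, 1.85 (1.64 to 2.06) for Ms4a6b, 1.36 (1.14 to 1.59) for Ms4a6d and 1.41 (1.25 to 1.57) for Ms4a4c. The same order held in both treated libraries. Ms4a7 was nearly restricted to the Apoe cluster, with 60 UMIs there against 1 in the F13a1 cluster before treatment, 124 against 3 on D2 CTX and 23 against 4 on D7 CTX. Ms4a6c made up 56.6% of the UMIs of the 6 genes in the naive Apoe cluster and 74.6% in the naive F13a1 cluster. The share of Ms4a6d in the Apoe cluster was 9.4%, 18.7% and 15.6% over the 3 libraries.

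At D2 CTX the monocyte class had less Ms4a6c and more Ms4a6d relative to naive. The log2 ratio of the summed 6 genes was -0.67 (-0.71 to -0.62), with Ms4a6c at -0.98 (-1.04 to -0.91), Ms4a6b at -0.43 (-0.57 to -0.29), Ms4a4c at -0.52 (-0.64 to -0.41), Ms4a6d at 0.29 (0.15 to 0.43) and Ms4a7 at 0.90 (0.45 to 1.36). The lower sum did not hold across the class. The Mpo and Ly6d/Dntt sub-clusters held 29.8%, 67.4% and 23.9% of its UMIs over the naive, D2 CTX and D7 CTX libraries. Without them and the Camp sub-cluster the sum was at 0.14, Ms4a6b at 0.48, Ms4a4c at 0.42, Ms4a6d at 1.21 and Ms4a6c at -0.37. With both clusters weighted to their naive UMI shares the sum was at 0.048, Ms4a6b at 0.50 and Ms4a4c at 0.20. Of the 6315 genes with enough UMIs to compare, 6.79% were at least 1 log2 unit apart, 4.80% higher and 2.00% lower. None of the 4 members that passed that filter reached the limit, and their median was -0.47 beside 0.08 for all genes. Which cluster filled the class differed, since the F13a1 cluster held 59.2%, 86.4% and 57.7% of the class UMIs in the naive, D2 CTX and D7 CTX libraries, so both clusters are given apart. Azurophil granule genes (Mpo, Elane, Prtn3 and Ctsg), which mark progenitors and neutrophil precursors, summed to 2040, 4006 and 3486 CPM in the class, and 9 erythroid markers to 2777, 87.1 and 17.2 CPM, with 0, 1 and 2 of the 9 at 0. Their part in these values was not tested.

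Within the Apoe cluster, with 407 naive and 156 D2 CTX cells, Ms4a6c was at 1188 and 1278 CPM, which gave a log2 ratio of 0.10 (0.00 to 0.21). Ms4a6d was at 197, 560 and 332 CPM in naive, D2 CTX and D7 CTX BM, with a ratio of 1.51 (1.32 to 1.69) at D2 CTX. Ms4a6b was at 280, 460 and 245 CPM, with 0.71 (0.53 to 0.90) at D2 CTX, Ms4a4c at 398, 534 and 338 CPM, with 0.42 (0.26 to 0.59), and Ms4a7 at 26.0, 145 and 6.06 CPM, with 2.48 (2.02 to 2.95). All 5 were highest at D2 CTX, though for Ms4a6c the lower end of the interval was at 0. Of 2387 genes tested, 6.33% were at least 1 log2 unit apart, 4.32% higher and 2.01% lower. Of the 4 members that passed the filter only Ms4a6d reached it, higher, at percentile 98.2 of all tested genes. In the same cells the 8 macrophage markers summed to 128, 548 and 60.3 CPM over the 3 libraries, with C1qa at 3, 142 and 1 CPM and 3 of the 8 at 0 at D7 CTX. The 8 markers of MHC class II-rich dendritic cells moved more, to 1657, 8640 and 412 CPM, with 1, 2 and 1 of the 8 at 0. The part of either list in these values was not tested. Ly6c2 was at 1224, 497 and 1037 CPM in the cluster.

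In the F13a1 cluster, with 260 naive and 199 D2 CTX cells, Ms4a6c was at 899, 398 and 985.2 CPM in naive, D2 CTX and D7 CTX BM, with a log2 ratio of -1.18 (-1.26 to -1.10) at D2 CTX. Ms4a4c followed with less distance, at 150, 119 and 173 CPM and a ratio of -0.34 (-0.51 to -0.17). Ms4a6d was at 76.9, 90.1 and 148 CPM, 0.23 (0.01 to 0.45) at D2 CTX, so it did not share the low level of Ms4a6c. Of 5571 genes tested, 5.58% were at least 1 log2 unit apart, 4.07% higher and 1.51% lower, and of the 4 members that passed only Ms4a6c reached the limit, lower, at percentile 1.01. Azurophil granule genes summed to 3121, 4613 and 5607 CPM in the cluster, and their part was not tested.

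**Figure D2:**
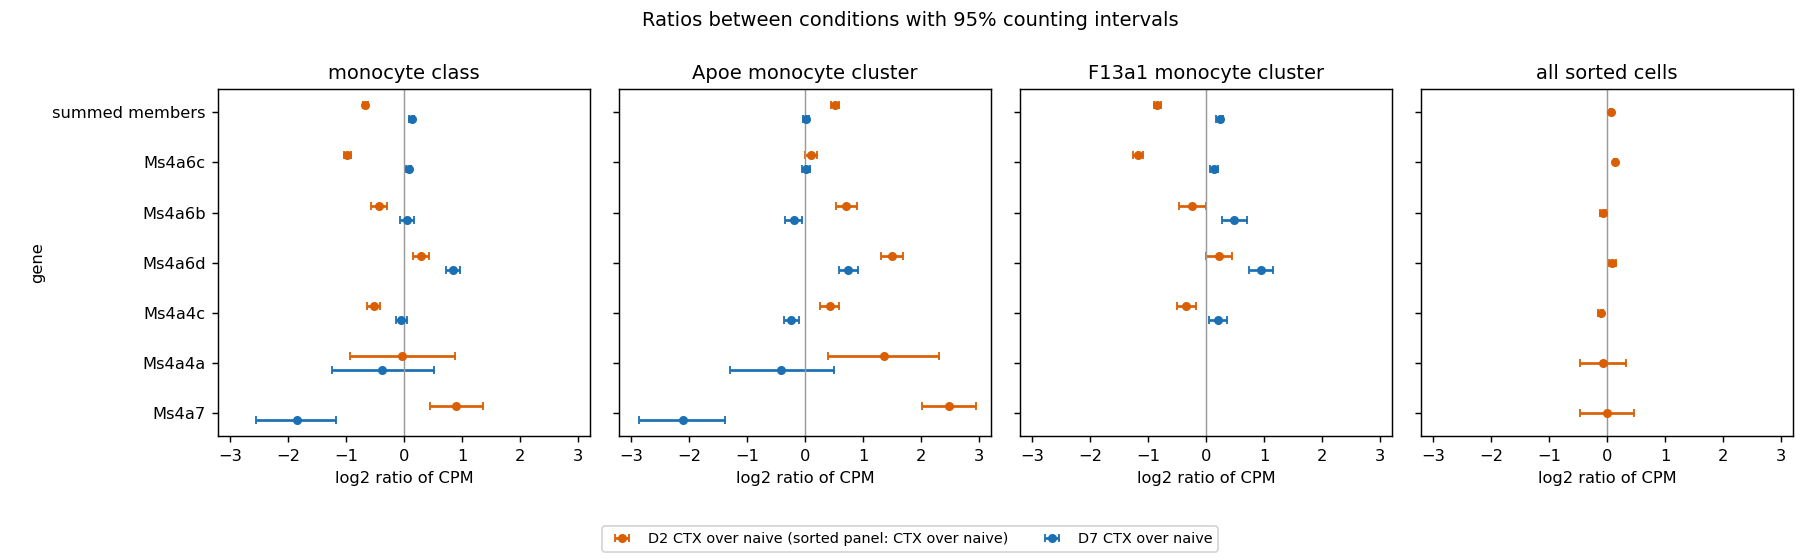
Log2 ratios of CPM (horizontal axis), treated over naive, for the summed and single genes in the monocyte class, its Apoe and F13a1 clusters and all sorted cells, with exact 95% counting intervals and a line at 0, leaving out Ms4a4a and Ms4a7 in the F13a1 cluster for their few UMIs. Ms4a6d lies above 0 in the class at D2 CTX (0.29) and D7 CTX (0.84), while Ms4a6c lies at -0.98 and 0.08.

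At D7 CTX Ms4a6c was back near its naive level and Ms4a6d was above it. In the monocyte class the summed 6 genes had a log2 ratio of 0.13 (0.09 to 0.17) over naive, with Ms4a6c at 0.08 (0.03 to 0.13), Ms4a6b at 0.05 (-0.07 to 0.17), Ms4a4c at -0.05 (-0.15 to 0.05), Ms4a6d at 0.84 (0.71 to 0.96) and Ms4a7 at -1.84 (-2.55 to -1.17). The median ratio of all 5887 genes tested was -0.10, so the ratio of Ms4a6c was 0.08 against a centre of all genes below 0. Of these genes 1.12% were at least 1 log2 unit apart, none of the 4 members that passed was, and their median was 0.07. Ms4a6d stood at percentile 99.1 of the tested genes. Neutrophil markers were also higher in the same cells, with 9 markers of neutrophil progenitors at 4345 CPM in naive and 9342 in D7 CTX and 8 of immature neutrophils at 3625 and 8630, none at 0. The D7 CTX library stood apart in mitochondrial share as well, with a median of 0.970% of UMIs per cell beside 3.03% in naive BM. Without the Mpo, Camp and Ly6d/Dntt sub-clusters, a setting chosen after seeing the data, Ms4a6d was at 0.84. The part of the neutrophil markers and of the mitochondrial share in these values was not tested. The Ms4a6d ratio was 0.75 (0.59 to 0.91) in the Apoe cluster and 0.94 (0.73 to 1.15) in the F13a1 cluster. In these clusters 0.927% (0.489% higher, 0.438% lower) and 1.19% (0.894% higher, 0.292% lower) of genes were at least 1 log2 unit apart and no member was. Both treated libraries were compared with the same naive library.

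Splitting the monocyte class into 12 sub-clusters showed where the differences lay. Sub-clusters are labelled by genes among their leading ones, not always by the first. The Apoe sub-cluster had Hbb-bs first and took the erythroid name, although the monocyte markers scored highest. The Hist1h1b/Rrm2 sub-cluster had Ccl5 and Prss34 first and took the NK name. Of the 12, 10 had at least 20 cells in both naive and D7 CTX BM. The Ms4a6d ratio at D7 CTX had an interval above 0 in 9 of the 10, from 0.51 in the Camp sub-cluster and 0.60 in the Mpo sub-cluster to 1.13 in the Hist1h2bc sub-cluster, with 3.17 in the Ly6d/Dntt sub-cluster from 1 naive and 8 D7 CTX UMIs. The exception was the Ace sub-cluster of non-classical genes, at 0.52 (-1.61 to 3.102) from 25 naive and 30 D7 CTX cells. Ms4a6c had an interval above 0 in 4 of the 10 and below 0 in none. The higher Ms4a6d level at D7 CTX was thus spread over most of the sub-clusters.

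At D2 CTX, 7 sub-clusters had enough cells, and Ms4a6c had an interval below 0 in 4 of them and above 0 in none. In the Mpo sub-cluster, of 72 naive, 65 D2 CTX and 119 D7 CTX cells, Ms4a6c was at 1051, 439 and 1030 CPM, a ratio of -1.26 (-1.38 to -1.13) at D2 CTX, while Ms4a6d was at 105, 96.9 and 159 CPM with -0.11 (-0.46 to 0.24). In the cycling Vcan/Cenpe sub-cluster Ms4a6c was at 1317, 688 and 1370 CPM, with -0.94 (-1.12 to -0.76). There the other genes went the other way, with Ms4a6b at 1.12 (0.65 to 1.60), Ms4a6d at 1.31 (0.91 to 1.72) and Ms4a4c at 0.82 (0.53 to 1.11). The Ly6d/Dntt sub-cluster had Ms4a6c at 246, 213 and 428 CPM and Ms4a6d at 1.34, 2.87 and 12.1 CPM. By its leading genes (Mpo, Elane, Ctsg, Prtn3) the Mpo sub-cluster took the GMP name, and the Ly6d/Dntt sub-cluster, with Siglech and Il7r, that of plasmacytoid dendritic cells. The former held 16.6% of the naive and 39.8% of the D2 CTX class UMIs, and the latter 13.2% and 27.7%.

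**Figure D3:**
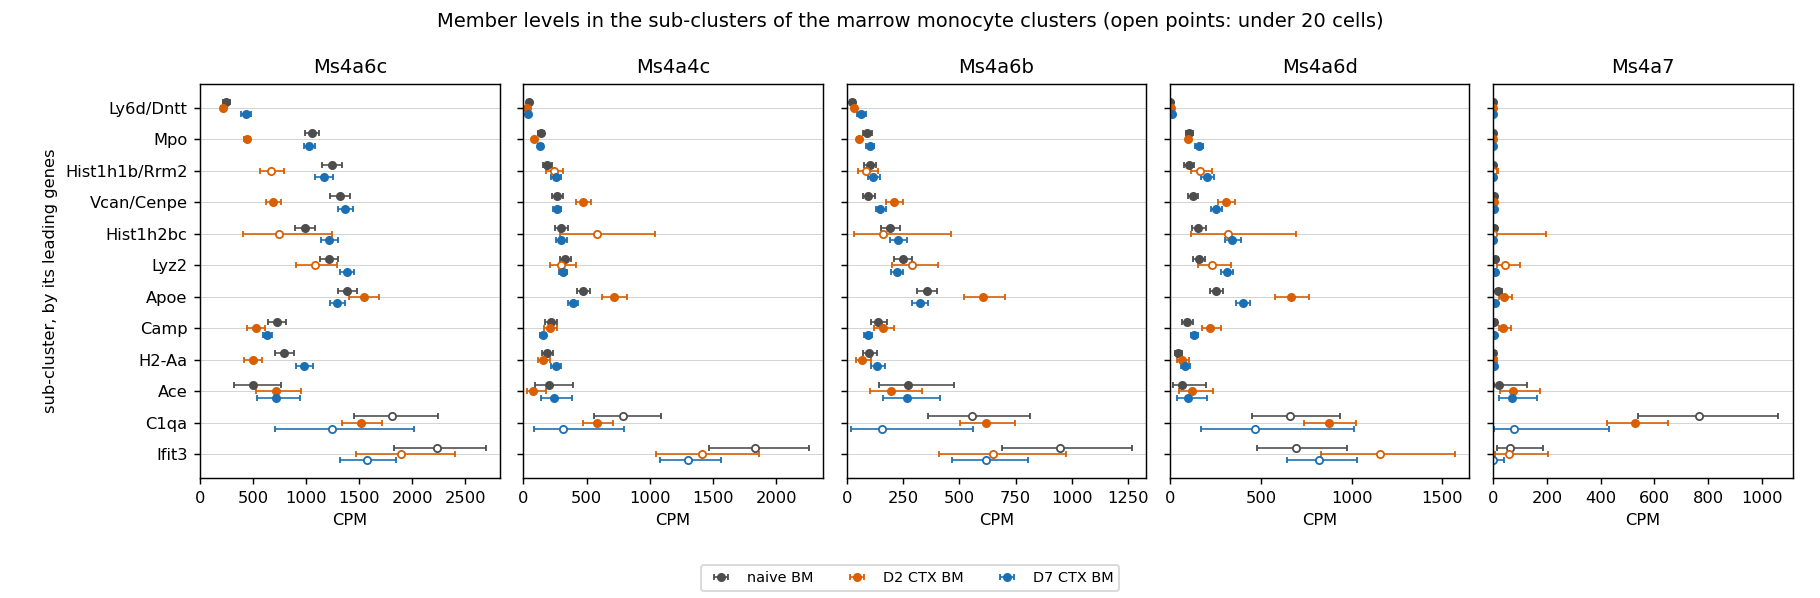
Levels in CPM (horizontal axis, a separate scale per gene) of 5 members by sub-cluster of the BM monocyte class, with a colour per library, exact 95% counting intervals and open points for under 20 cells. Ms4a6c in the Mpo sub-cluster is at 439 CPM at D2 CTX beside 1051 in naive and 1030 in D7 CTX BM.

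Ms4a7 rested on a small number of cells. The C1qa sub-cluster had 11 naive, 29 D2 CTX and 3 D7 CTX cells, that is 1.65%, 8.17% and 0.309% of the class, and held 59.02%, 70.1% and 3.70% of its Ms4a7 UMIs. Its Ms4a7 level was 768 CPM (538 to 1063) in naive cells and 528 (424 to 650) in those of D2 CTX, so the level there was not higher at D2 CTX. In the Ace sub-cluster Ms4a7 was at 22.8 (0.58 to 127), 74.9 (24.3 to 175) and 69.9 CPM (22.7 to 163). These came from only 1, 5 and 5 UMIs, and the intervals overlapped. The Ifit3 sub-cluster, led by interferon-induced genes, had the highest Ms4a4c, with 1831, 1412 and 1304 CPM from 10 naive, 4 D2 CTX and 16 D7 CTX cells, and Ms4a6c at 2230, 1891 and 1570 CPM.

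In sorted CD11b+Ly6Chi monocytes the family stood close to naive after CTX. Ms4a6c was at 1264 CPM in naive and 1398 in CTX monocytes, a log2 ratio of 0.15 (0.12 to 0.17), and Ms4a6d was at 217 and 231 CPM, 0.09 (0.04 to 0.15). Ms4a4c was at 366 and 339 CPM, -0.11 (-0.15 to -0.07), and Ms4a6b at 207 and 197 CPM, -0.07 (-0.13 to -0.02). All of these were small ratios whose intervals are narrow because 45918 and 62172 member UMIs were counted. Ms4a7 was at 3.19 and 3.18 CPM and Ms4a4a at 4.40 and 4.19 CPM, with no difference detectable, and the 8 macrophage markers summed to 54.8 and 41.3 CPM with 4 of 8 at 0 in each library. Of 5549 genes tested, 0.955% were at least 1 log2 unit apart, and none of the 4 members that passed was. Ms4a3, the progenitor gene of the family, differed more than any of the 6, at 14.9 and 56.2 CPM or 1.91 (1.74 to 2.09). The Mpo/Elane cluster held 132 of 333 Ms4a3 UMIs in 9 naive cells and 1165 of 1609 in 51 CTX cells. Without that cluster Ms4a3 was at 9.10 and 15.97 CPM, a smaller ratio of 0.81. The larger Ms4a6d ratio of the D7 CTX BM class (0.84) stood beside 0.09 in the sorted libraries, which are a separate pair and were not tested against each other.

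Sorting did not make the cells uniform. Sorted cells fell into 13 clusters, of which 11 had at least 20 cells in both libraries, and Ms4a6c was higher after CTX with an interval above 0 in 9 of them. In the largest, the Apoe/Socs3 cluster, it was at 1256 CPM in 488 naive and 1500 in 573 CTX cells, a ratio of 0.26. The exceptions were the Cenpf/Ccnb1 cluster at 0.04 (-0.06 to 0.14) and the H2-Aa/Cd74 cluster, rich in MHC class II genes, at -0.31 (-0.50 to -0.12) from 1317 and 1064 CPM. In the Ighg2b/Igkc cluster, which carried immunoglobulin RNA, Ms4a6c was at 708 and 1209 CPM, while plasma cell genes summed over all sorted cells were at 414 and 134 CPM. The Cdc20/Ccnb2 cluster, labelled by cell cycle genes, also had Igha, Jchain and Igkc first among its leading genes.

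**Figure D4:**
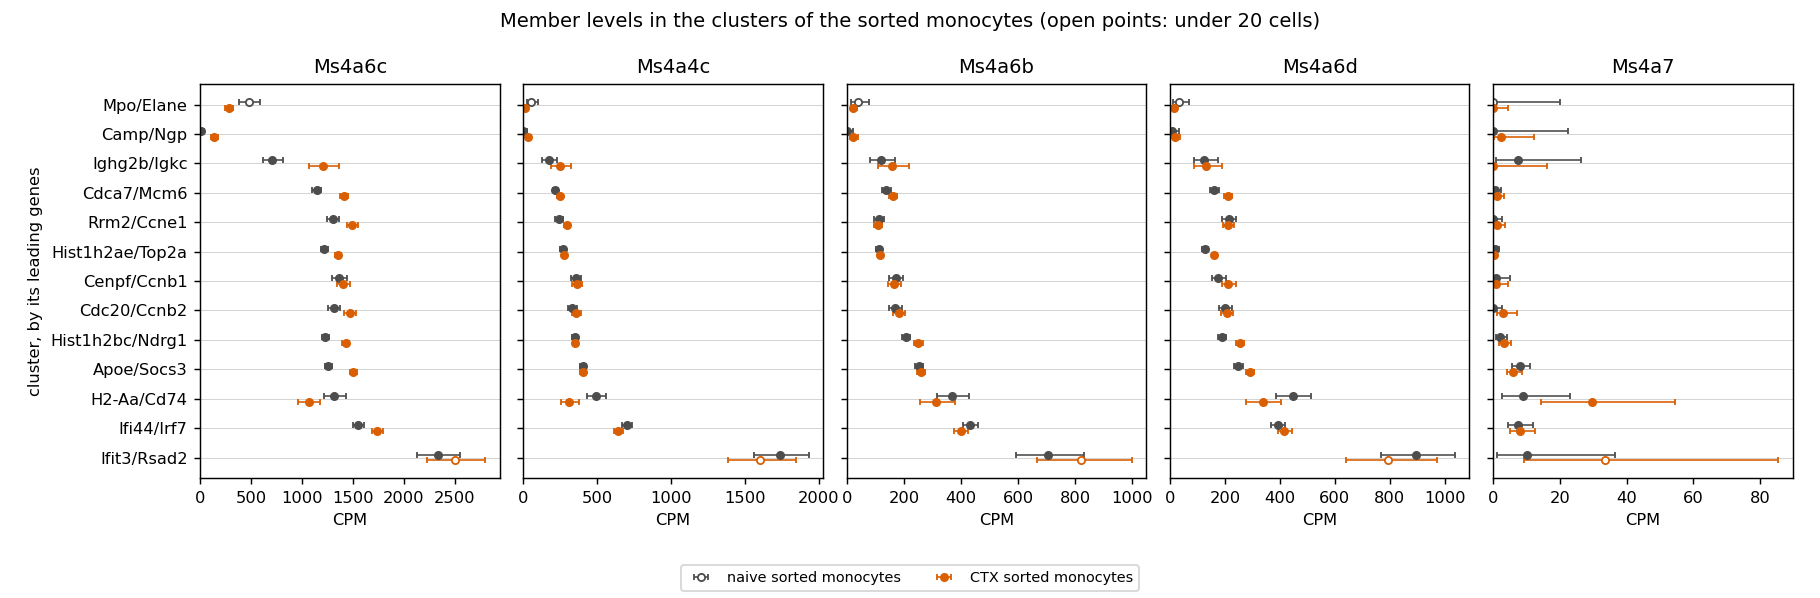
Levels in CPM (horizontal axis, a separate scale per gene) of 5 members by cluster of sorted CD11b+Ly6Chi monocytes, naive beside CTX, with exact 95% counting intervals and open points for under 20 cells. Ms4a6c stands above 1000 CPM in most clusters and at 6.06 and 139 CPM in the Camp/Ngp cluster.

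A sorted cluster led by cell cycle genes had Ms4a6c near the level of the largest cluster but less of the other genes. Relative to the Apoe/Socs3 cluster of the same library, the Hist1h2ae/Top2a cluster had Ms4a6c at a log2 ratio of -0.04 in naive and -0.15 in CTX monocytes, but Ms4a6b at -1.19 and -1.15, Ms4a6d at -0.99 and -0.86 and Ms4a4c at -0.60 and -0.56. The Mpo/Elane cluster of 9 naive and 51 CTX cells had Ms4a6c at 476 and 282 CPM and, in CTX monocytes, Ms4a4c at -5.20 relative to the Apoe/Socs3 cluster. The Camp/Ngp cluster, led by neutrophil granule genes, had 1 naive and 64 CTX Ms4a6c UMIs. The Ifit3/Rsad2 cluster, of 21 naive and 16 CTX cells, had Ms4a4c at 1737 and 1604 CPM, a ratio of 2.11 (1.94 to 2.28) to the Apoe/Socs3 cluster in naive, and Ms4a6d at 1.85 and Ms4a6b at 1.48. Ms4a6c was above by 0.89 in that cluster, at 2331 CPM. The larger Ifi44/Irf7 cluster, also led by interferon-induced genes, had Ms4a4c at 700 CPM in 254 naive and 643 in 276 CTX cells. These clusters were drawn without Ms4a genes but from the same cells, so the differences between them are descriptions.

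To count cells at equal depth, each BM cell was thinned to 1000 UMIs and each sorted cell to 2000. Ms4a6c was then seen in 61.8%, 48.8% and 61.2% of the monocyte class in naive, D2 CTX and D7 CTX BM, where the median depth before thinning was 6954, 11494.5 and 7850.5 UMIs. In B lineage cells, which should lack the gene, it was seen in 0.571%, 0.476% and 0.485%, with median depths of 2966, 2532 and 7616.5 UMIs, so the monocyte shares were far above that background. The thinning left out 7, 9 and 4 cells of the monocyte class and 59 naive and 71 CTX sorted cells that were shallower. Ms4a6d was seen in 18.2%, 35.4% and 26.1% of the Apoe cluster, highest at D2 CTX, and without thinning in 51.8%, 67.3% and 77.6%, highest in the deeper D7 CTX library. Sorted monocytes had Ms4a6c in 89.4% of naive and 88.2% of CTX cells, Ms4a4c in 46.1% and 44.7%, Ms4a6b in 33.4% and 33.2% and Ms4a6d in 33.02% and 35.3%, so the libraries were close for each. Without thinning, Ms4a6c was seen in 96.9% and 95.6% of sorted cells. Ms4a6b in T cells was seen in 45.2% of naive and 43.4% of D2 CTX cells.

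**Figure D5:**
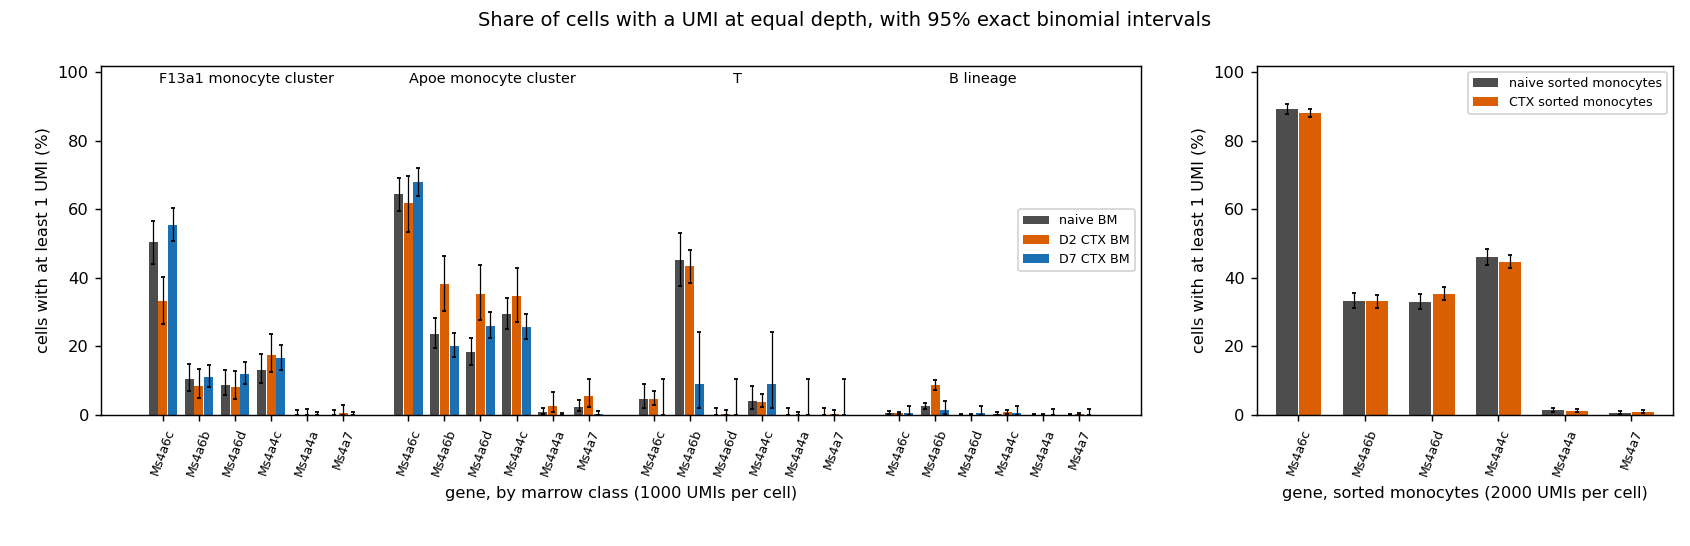
Bars show the percent of cells with at least 1 UMI of each member after thinning, with exact 95% binomial intervals. Both monocyte clusters, T and B lineage cells of the BM were thinned to 1000 UMIs and sorted monocytes to 2000. Ms4a6c is seen in 89.4% and 88.2% of sorted monocytes and in under 1% of B lineage cells.

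Several members were carried by the same cells. At equal depth, 2 or more of the 6 genes were seen in 41.5%, 56.5% and 42.4% of cells in the naive, D2 CTX and D7 CTX Apoe cluster and in 19.6%, 17.1% and 22.7% of the F13a1 cluster. In sorted monocytes the shares were 67.5% and 67.7%, and in naive B lineage cells 0.114%. Across 49 profiles of cell classes and libraries of BM, which share libraries and depth, the genes most like each member were found over 11107 genes by Pearson's r of log2(CPM + 1). They were Npc2 (0.81) for Ms4a6c, Fn1 (0.88) for Ms4a6d, S100a10 (0.87) for Ms4a6b, Ahnak (0.87) for Ms4a4c, Adgre4 (0.91) for Ms4a7 and Ccl2 (0.73) for Ms4a4a. Among the members r was 0.77 for Ms4a6c with Ms4a6d, 0.75 for Ms4a6b with Ms4a4c and 0.14 for Ms4a6b with Ms4a7. Fn1, the fibronectin gene, and Ccr2 are markers by which monocytes were named, and Adgre4 and Fcgr1 (0.88 with Ms4a7) are surface receptors of macrophages.

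Other lists give the setting of these values. Over all tested genes of the monocyte class at D2 CTX, 4.80% were higher and 2.00% lower by at least 1 log2 unit. At D7 CTX 0.595% were higher and 0.527% lower. In the Apoe cluster the shares were 4.32% and 2.01% at D2 CTX and 0.489% and 0.438% at D7 CTX. In sorted monocytes 0.144% were higher and 0.811% lower. Of 8 classical monocyte genes, all passed the filter in the class, and at D2 CTX 4 were lower by at least 1 log2 unit (S100a4, Ly6c2, Fn1 and Klf4) with a median of -0.97, while at D7 CTX none reached the limit and the median was -0.12. Of 13 interferon-stimulated genes, 6 passed in the Apoe cluster at D2 CTX and 4 were higher (Ifi44, Ifi47, Isg15 and Irf7) with a median of 1.21, and in sorted monocytes 7 passed, none reached the limit and the median was -0.60. Of 4 azurophil granule genes, Mpo and Ctsg were higher in the class at D2 CTX, with a median of 0.82, and none reached the limit in sorted monocytes, with a median of 0.81. In the Apoe cluster at D2 CTX the 3 that passed (Elane, Mpo and Prtn3) were all lower, with a median of -2.14. Of 5 measured genes for proteins that work with MS4A proteins (Vsig4, Trem2, Tyrobp, Fcer1g and Syk), 4 passed in the class, and Fcer1g was lower at D2 CTX and none reached the limit at D7 CTX, while Trem2 was higher in the Apoe cluster at D7 CTX. Clec7a was not analysed here.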

How the data were processed

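Single-cell RNA was measured in 5 libraries made with 10x Genomics 3′ V3 chemistry, 3 of BM and 2 of sorted monocytes. The authors deposited counts of UMIs per gene and barcode from Cell Ranger 3.1 on mm10, with no normalization. The submitters' processing notes also name Seurat 5.0. Such counts leave out reads that map to several genes. Gene positions came from GENCODE M21 and promoters from RefSeq (GRCm38.p6).

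Cells with at least 200 genes and under 20% mitochondrial UMIs were kept. BM and sorted cells were clustered apart in Seurat 5.3.0 (R 4.3.3, Matrix 1.6.5) with log normalization to 10000 UMIs, 2000 variable genes without any Ms4a gene, 30 components, reciprocal PCA and Louvain resolution 0.8, and gave 26 and 13 clusters. Clusters were named where 3 markers were detected, the score reached 30% and 50% of the best score, and 1 marker stood among the 10 leading genes. The Pf4-led, Ighd-led and Iglc1-led BM clusters took a name by this rule but were left without a class. Classes were thus rebuilt here. Doublets were kept, except where stated. CPM have exact Poisson, ratios exact conditional and shares exact Clopper-Pearson intervals at 95%, which cover counting error only. Ratios needed at least 20 cells in both groups. Genes with at least 200 UMIs over both groups and 20 CPM in 1 of them, with 1 CPM added, formed the background, called at 1 log2 unit. With 1 library per condition no test was run. Named genes were the 6 members, other family genes of at least 20 CPM in a class, the 3 most alike genes of each member and up to 4 genes of each list.

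Alternatives were a stricter cell filter, removal of doublets, no integration, other resolutions, Ms4a genes allowed in clustering, other scalings and totals, means over cells, subtraction of the B lineage level, single monocyte clusters and other limits for the background. The members and lists were chosen with earlier results of these data known. The log2 ratios, their intervals and the limit of 1 log2 unit were tested on simulated counts. Clustering, naming, thinning and the sequence steps were not. Python 3.11.15, numpy 2.4.6, scipy 1.17.1, pandas 2.3.3, scanpy 1.11.5 (Scrublet) and matplotlib 3.10.9 were used.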

Additional observations from a re-analysis of the deposited data

Results flagged for a closer look

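Several log2 ratios over naive had opposite signs at D2 CTX and D7 CTX, or in the Apoe and F13a1 clusters on the same day. Each rests on 1 library per condition, both days share the naive library, and the differences between days or clusters were not tested. The summed 6 genes were at -0.67 and 0.13 at D2 CTX and D7 CTX in the monocyte class and at -0.84 and 0.23 in the F13a1 cluster, while the Apoe cluster was at 0.51 at D2 CTX. Ms4a6c was at -0.98 and 0.080 in the class and at -1.18 and 0.13 in the F13a1 cluster, and at 0.10 in the Apoe cluster at D2 CTX. Ms4a6b was at 0.71 and -0.20 in the Apoe cluster and at -0.24 and 0.49 in the F13a1 cluster, so that the clusters had opposite signs on both days. Ms4a4c showed the same arrangement, at 0.42 and -0.23 in the Apoe cluster and -0.34 and 0.20 in the F13a1 cluster. Ms4a7 was at 0.90 and -1.84 in the class and at 2.48 and -2.10 in the Apoe cluster.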

How the results depend on the processing

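Ms4a6d kept its sign in all 17 settings of each BM comparison and all 9 of the sorted one, with ratios of 0.12 to 1.51 at D2 CTX, 0.69 to 0.94 at D7 CTX and 0.05 to 0.19 in sorted monocytes. Of 258 ratios of single members under alternatives, 184 stayed within the interval of the reported value and 38 had the other sign, 17 of them where the reported interval lay to one side of 0. Summed over the 6 genes at D2 CTX (reported -0.67), the ratio became 0.51 in the Apoe cluster only, 0.14 without the Mpo, Camp and Ly6d/Dntt sub-clusters and 0.048 with both clusters weighted to their naive UMI shares. The last 2 of these, the F13a1 cluster alone and leaving out the Ace and C1qa sub-clusters were chosen after seeing the data. In these 3 settings Ms4a6b was at 0.71, 0.48 and 0.50 and Ms4a4c at 0.42, 0.42 and 0.20, and Ms4a6c was at 0.10 in the first. The sum was -0.78 without doublets, -0.75 scaled by the median of gene ratios, -0.15 as the mean of the cells' CPM (Ms4a6b 0.18), -0.81 after subtracting the B lineage level (Ms4a6b -2.18, where B lineage cells carried 86.6 CPM of Ms4a6b), -0.21 at resolution 0.4 (Ms4a6b 0.090, Ms4a4c 0.051), -0.57 at resolution 1.2, -0.21 with Ms4a genes allowed (Ms4a6b 0.088, Ms4a4c 0.053), -0.84 in the F13a1 cluster and -0.78 without the Ace and C1qa sub-clusters. At D7 CTX (reported 0.13) it was 0.23 by the median of ratios, 0.18 without the 20 most abundant genes, 0.032 as the mean of cells, 0.035, 0.0074 and 0.045 at resolution 0.4, at 1.2 and with Ms4a genes allowed (Ms4a6c -0.026, -0.044 and -0.017), 0.018 in the Apoe cluster and 0.23 in the F13a1 cluster, where Ms4a7 was at 1.37 from 1 naive and 4 D7 CTX UMIs. In sorted monocytes (reported 0.08) it was 0.046 by the median of ratios and 0.051 as the mean of cells, 0.11 without the clusters led by granule or lymphoid genes and 0.16 weighted to the naive cluster shares (Ms4a6b 0.052). The cause of these changes was not tested. The weighting sets only the shares of the clusters and leaves the mix of cells within each cluster as it was. Counts of genes at least 1 log2 unit apart went from 53 to 140 without the filter and 161 at 1.5-fold in sorted monocytes, from 429 to 1295 and 1458 at D2 CTX and from 66 to 330 and 213 at D7 CTX.

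No cluster took the name of a monocyte and dendritic progenitor, so adding that class gave no value. No paired analysis was possible because each group had 1 library, and no library could be left out. Depth limits Ms4a4a and Ms4a7, with 22 and 61 UMIs in the naive monocyte class, and the sub-clusters of few cells. Ms4a3 without the Mpo/Elane cluster was computed after seeing the data.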

Other observations

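Of the other family genes, Ms4a3, Ms4a4b and Ms4a2 had high levels in other cell classes, while Ms4a8a was seen in monocytes. Ms4a3 was at 1730, 1353 and 1656 CPM in GMPs of naive, D2 CTX and D7 CTX BM. In the monocyte class it was at 25.3, 161 and 52.9 CPM, with log2 ratios of 2.67 (2.41 to 2.93) and 1.06 (0.79 to 1.34) at the D2 and D7 time points. The Mpo sub-cluster held 16.6%, 39.8% and 16.5% of the class UMIs over the 3 libraries. Within that sub-cluster Ms4a3 was at 82.3, 356 and 174 CPM. The part of either in the class ratios was not tested. Ms4a4b, whose transcripts share a run with Ms4a4c, was at 1174, 1455 and 645 CPM in T cells and at 1245, 1273 and 723 CPM in NK cells. In sorted monocytes Ms4a4b was at 43.1 CPM in naive and 49.4 in CTX. Ms4a4c in T cells was at 47.8, 52.7 and 54.9 CPM. Ms4a2 was at 1284 CPM in naive and 1212 in D2 CTX basophils or mast cells. Ms4a8a was at 38.6, 16.3 and 31.9 CPM in the monocyte class and at 49.2 and 30.3 CPM in naive and CTX sorted monocytes, a ratio of -0.70.

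Tmem176a and Tmem176b, relatives of the family on another chromosome, were highest at D2 CTX in the Apoe cluster, at 75.9, 239 and 67.96 CPM and at 152, 386 and 104 CPM in naive, D2 CTX and D7 CTX BM. In sorted monocytes they were lower after CTX, at 47.2 and 38.3 CPM and at 68.8 and 58.0 CPM. In the same Apoe cluster 8 markers of MHC class II-rich dendritic cells, H2-Aa and Cd74 among them, summed to 1657, 8640 and 412 CPM.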
